A study of Homo sapiens with 9 samples.

Results

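The glucose and lactate transporters described here are 8 genes of the solute carrier family, SLC2A1, SLC2A3, SLC2A4, SLC2A6, SLC2A8, SLC16A1, SLC16A3 and SLC16A7. They were taken by gene name, a rule that itself uses no measured value, but the set was chosen with earlier results of these data known. All 8 were found among the 26830 genes of the deposited tables. They were measured by poly(A) RNA sequencing in human cells labelled NB4, the name of a line from a promyelocytic leukaemia, with acute monocytic leukemia as the labelled cell type. The marker genes given below go against both names in the DMSO libraries, so the cells are called here by their label only. The cells had 48 h with FB23-2, with FB23 or with DMSO, the solvent, with 3 libraries in each of the 3 groups. The labels give FTO inhibition as the treatment for both compounds and Ctrl for DMSO. No label gives a dose, so the comparison of the compounds is matched for time and not for dose. FTO takes the methyl group off N6-methyladenosine in RNA. Separate cultures are not stated for the libraries, and the p-values therefore measure only the spread between these libraries, which may be technical. All groups are 1 cell line.

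The SLC2A proteins, or GLUTs, let glucose and related sugars pass through membranes down their gradient. GLUT1 and GLUT3 act at the cell surface, whereas GLUT4 moves there from inside the cell when insulin acts on muscle and fat, and GLUT6 and GLUT8 are held mostly on membranes inside the cell. The SLC16A proteins MCT1, MCT2 and MCT4 carry lactate and pyruvate together with a proton, so that cells that break glucose down to lactate can release it and other cells can take it up. Rapidly dividing blood cells and leukaemias depend on this traffic, and human red cells and their precursors carry much GLUT1.

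Libraries held 12360291 to 38410750 expected counts, with 15207132 to 24595521 for FB23-2, 12360291 to 38410750 for FB23 and 16804604 to 18514243 for DMSO. FB23-2 changed the transcriptome far more widely than FB23, with 82.6% and 23.5% of the 13365 tested genes called against DMSO. The 5 genes of promyelocyte granules summed to 1.05 to 1.77 TPM with FB23-2, 0.23 to 0.78 TPM with FB23 and 0.76 to 1.56 TPM with DMSO. MPO and CTSG among them had 0 counts in all 9 libraries, which allows up to 0.0156 CPM over the 9. The 10 erythroid genes, globins among them, summed to 3955 to 4529 TPM with FB23-2, 31371 to 33751 TPM with FB23 and 27403 to 29029 TPM with DMSO. The 7 monocyte genes summed to 65.6 to 72.1 TPM with FB23-2, 10.7 to 12.4 TPM with FB23 and 14.2 to 15.2 TPM with DMSO. Among them CD14 and CSF1R, the receptors that define monocytes, did not pass 0.84 and 0.33 TPM in any library. CD68, ITGAX and LYZ made up most of the sum with FB23-2, at 33.5 ± 3.64, 18.8 ± 0.585 and 11.4 ± 0.551 TPM. Promyelocyte and monocyte markers were thus low or absent with DMSO, and erythroid genes were abundant. In bulk RNA, fewer cells of a type and less RNA per cell cannot be told apart.

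FB23-2 raised the transcripts of GLUT1, GLUT3, GLUT6 and MCT4 and lowered those of GLUT8 and MCT1, the last in CPM but not in TPM. SLC2A3 and SLC2A1 were then the most abundant of the set, and SLC2A6 and SLC16A3 had the largest folds, at low levels. With FB23 the same 3 SLC2A genes were 1.15- to 1.35-fold higher than with DMSO, and SLC16A3 was lower. Of the 7 transporters tested, 4 were higher, 2 were lower and 1 was not called for FB23-2 against DMSO, where 41.3% of all tested genes were called higher and 41.3% lower. On the log2(TPM + 0.1) scale, with limma, 4 were higher and 1 was lower in that comparison, and likewise for FB23-2 against FB23. For FB23 against DMSO 3 were higher, 1 was lower and 3 were not called, where 12.3% of all tested genes were called higher and 11.2% lower. For FB23-2 against FB23 4 were higher, 2 were lower and 1 was not called, where 81.5% of all tested genes were called, 40.4% higher and 41.1% lower. The share called among the transporters in the comparisons with FB23-2 is therefore near that of all genes. The median log2 fold change of the 7 was 1.04 for FB23-2 against DMSO, 0.15 for FB23 against DMSO and 0.84 for FB23-2 against FB23. Over all tested genes the medians were 0.01, 0.0040 and 0.0021 in the same order. The CPM values, counts per unit of scaled library total, did not overlap between groups for 6 of the 7 with FB23-2 against DMSO (84.2% of all tested genes), 4 with FB23 against DMSO (37.9%) and 6 with FB23-2 against FB23 (81.2%). A call means an adjusted p under 0.05 in edgeR's quasi-likelihood test, with Benjamini-Hochberg adjustment over all tested genes of a comparison. All 3 pairs of groups were compared, and p-values were not adjusted further over the pairs. SLC16A7 did not pass the filter on low counts and was not tested.

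**Figure D1:**
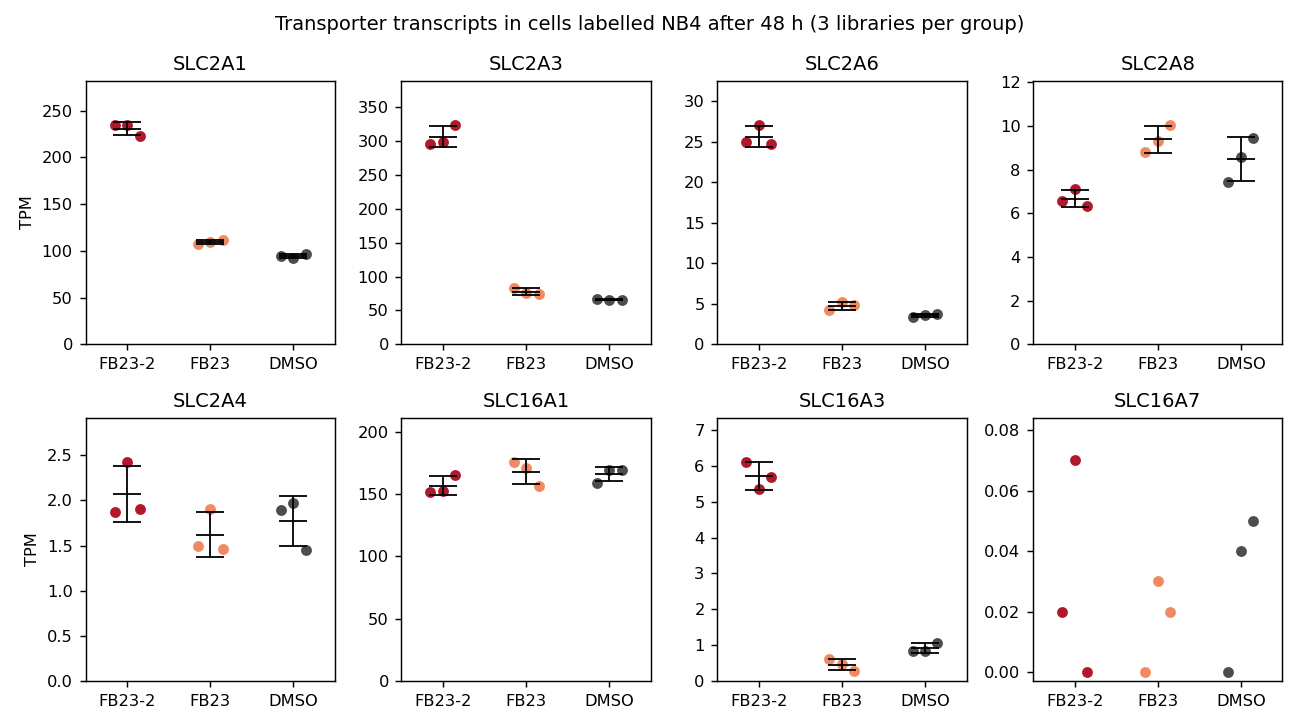
Deposited TPM, transcript abundance scaled for length and library total, of each transporter in the 9 libraries, with FB23-2, FB23 and DMSO from left to right in each panel. Each point is 1 library, and the bars give the mean and SD of 3 libraries (points alone for SLC16A7). SLC2A1, SLC2A3, SLC2A6 and SLC16A3 with FB23-2 lie above every other library, SLC2A8 with FB23-2 lies below, and SLC2A4 and SLC16A1 overlap between groups.

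Promoters are shown for transporters that moved and have a RefSeq promoter, because FB23-2 moved SLC2A1, SLC2A6 and SLC16A3 up and SLC2A8 down. SLC2A3, which rose, SLC16A1, which fell in CPM, and SLC2A4, which was not called, have none there. RefSeq's table for GRCh38.p14 gives a promoter, from 250 bases before to 50 bases after a start, for 5 of the 8 genes, in 10 windows. They were searched on both strands for CACGTG, the E-box bound by MYC and by the MondoA and ChREBP proteins, and for ACGTG and GCGTG, the cores of the sites bound by the hypoxia-inducible factors. CACGTG contains ACGTG. Matches are in capitals, and a capital CACGC is GCGTG on the other strand.
SLC2A1, chr1:42958819-42959118, minus strand: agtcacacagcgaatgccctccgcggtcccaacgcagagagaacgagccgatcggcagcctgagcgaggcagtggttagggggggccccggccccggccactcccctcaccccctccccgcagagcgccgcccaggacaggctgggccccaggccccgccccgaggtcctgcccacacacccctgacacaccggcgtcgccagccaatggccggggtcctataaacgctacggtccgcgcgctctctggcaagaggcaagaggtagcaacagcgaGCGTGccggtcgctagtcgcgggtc
SLC2A6, chr9:133479050-133479349, minus strand: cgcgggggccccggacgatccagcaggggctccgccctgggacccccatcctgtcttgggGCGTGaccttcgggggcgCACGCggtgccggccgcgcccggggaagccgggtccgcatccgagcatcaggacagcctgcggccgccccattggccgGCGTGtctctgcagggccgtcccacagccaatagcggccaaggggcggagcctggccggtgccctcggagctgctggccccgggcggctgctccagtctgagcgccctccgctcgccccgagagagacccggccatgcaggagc
SLC2A8, chr9:127396919-127397218, plus strand: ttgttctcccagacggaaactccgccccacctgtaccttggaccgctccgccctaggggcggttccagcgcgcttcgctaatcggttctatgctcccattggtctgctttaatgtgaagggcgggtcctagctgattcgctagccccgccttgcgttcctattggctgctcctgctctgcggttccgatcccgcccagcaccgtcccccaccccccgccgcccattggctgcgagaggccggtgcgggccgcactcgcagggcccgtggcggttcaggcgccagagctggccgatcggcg
SLC16A3 at the start nearest to the counted transcript, chr17:82228185-82228484, plus strand: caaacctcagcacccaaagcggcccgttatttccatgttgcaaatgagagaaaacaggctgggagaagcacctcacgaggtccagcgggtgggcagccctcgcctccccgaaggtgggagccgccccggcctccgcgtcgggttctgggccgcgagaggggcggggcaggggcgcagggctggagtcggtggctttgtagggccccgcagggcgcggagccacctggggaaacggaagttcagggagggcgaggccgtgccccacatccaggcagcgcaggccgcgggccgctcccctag
SLC16A3 at the next start, chr17:82228792-82229091, plus strand: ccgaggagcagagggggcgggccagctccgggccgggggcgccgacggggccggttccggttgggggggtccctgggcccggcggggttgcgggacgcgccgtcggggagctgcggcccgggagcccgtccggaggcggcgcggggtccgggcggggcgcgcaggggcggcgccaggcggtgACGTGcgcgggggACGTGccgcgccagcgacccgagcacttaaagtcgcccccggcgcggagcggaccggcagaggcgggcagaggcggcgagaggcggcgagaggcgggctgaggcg
The start of the SLC2A1 window lies 308 bases from that of the counted transcript, which is outside the window. That window held 1 GCGTG, after its own start, and the SLC2A6 window held 3, all before its start. The SLC2A8 window held no match. The first SLC16A3 window held none and the second held 2 ACGTG. SLC16A3 windows not printed here held 3 GCGTG at chr17:82234649-82234948, 1 at chr17:82235524-82235823 and no match at chr17:82231982-82232281. No window of a member held CACGTG, which 7.26% of the 35116 windows in the table hold. ACGTG or GCGTG stood in 5 of the 10 windows of members, and in 48.4% of all windows. These matches describe letters only, and neither binding nor methylation was measured here.

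SLC2A1 encodes GLUT1, the glucose transporter of red cells and of many tumours, and lies at chromosome 1, 42925375 to 42959176, minus strand (GRCh38, GENCODE 29). It had 234.25, 234.77 and 222.77 TPM in the FB23-2 libraries, 106.79, 109.56 and 111.85 TPM in the FB23 libraries and 94.90, 91.81 and 96.24 TPM in the DMSO libraries. The 3 groups did not overlap, and FB23-2 stood far above the others. SLC2A1 rose by 1.04 ± 0.05 (log2 fold change ± SE, n = 3 each) with FB23-2 against DMSO, with an edgeR adjusted p of 3.38e-12, or 2.06-fold. It rose by 0.20 ± 0.05 with FB23 against DMSO (edgeR adjusted p = 0.0107), or 1.15-fold. Without DMSO replicate 2 the adjusted p for FB23 was 0.0629 with a log2 fold change of 0.18, and over all alternatives that fold change ran over 0.17 to 0.23 and its adjusted p over 0.00038 to 0.0629. FB23-2 exceeded FB23 by 0.84 ± 0.05 (edgeR adjusted p = 6.63e-11). The erythroid markers, whose cells use GLUT1, moved the other way with FB23-2. All 10 were called lower against DMSO, and 9 on the log2(TPM + 0.1) scale, where 41.3% of all tested genes were called lower by the count test. With FB23, where SLC2A1 was also higher, 3 of the 10 were called higher and 0 lower, beside 12.3% and 11.2% of all tested genes. DESeq2 called 1 higher and 1 lower there. The part of these markers in the SLC2A1 level was not tested. SLC2A1-AS1, an antisense RNA that overlaps the gene on the plus strand, averaged 5.18 ± 0.343 TPM with FB23-2, 2.25 ± 0.576 TPM with FB23 and 1.19 ± 0.269 TPM with DMSO, and was 1.87 ± 0.26 higher with FB23-2 than with DMSO (edgeR adjusted p = 4.20e-06). The strand setting of the counting is not given in the sources used here, so reads of the gene and its antisense partner may not be fully separated.

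SLC2A3 encodes GLUT3, a high-affinity glucose transporter of neurons and white blood cells, at chromosome 12, 7919230 to 7936275, minus strand. It had 296.00, 298.69 and 324.10 TPM with FB23-2, 83.53, 75.81 and 73.55 TPM with FB23 and 66.49, 66.07 and 65.11 TPM with DMSO. The groups did not overlap, and the FB23-2 libraries were far above the others. SLC2A3 rose by 1.96 ± 0.05 with FB23-2 against DMSO (edgeR adjusted p = 1.05e-16), or 3.90-fold, with a 95% interval of 1.87 to 2.06 on the log2 scale. It rose by 0.22 ± 0.04 with FB23 (edgeR adjusted p = 0.00221), or 1.16-fold. FB23-2 exceeded FB23 by 1.75 ± 0.04 (edgeR adjusted p = 4.91e-16), or 3.36-fold. SLC2A14 is a near copy of SLC2A3 that encodes GLUT14, so reads may be split between them. It averaged 0.55 ± 0.12 TPM with FB23-2, 0.060 ± 0.036 TPM with FB23 and 0.11 ± 0.062 TPM with DMSO, and was 2.03 ± 0.48 higher with FB23-2 than with DMSO (edgeR adjusted p = 0.00093). SLC2A14 passed the filter on low counts only through its FB23-2 libraries, so its call was not independent of that group. With the counts of both genes summed, an alternative added after the data were seen, the log2 fold changes were 1.97, 0.22 and 1.75 in the 3 comparisons.

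SLC2A4 encodes GLUT4, the insulin-responsive transporter of muscle and fat, at chromosome 17, 7281667 to 7288257, plus strand. It had 1.87, 2.43 and 1.91 TPM with FB23-2, 1.49, 1.91 and 1.46 TPM with FB23 and 1.89, 1.97 and 1.45 TPM with DMSO. The 3 groups overlapped. The log2 fold change was -0.03 with a 95% interval of -0.42 to 0.37 for FB23-2 against DMSO, and -0.13 with an interval of -0.52 to 0.26 for FB23 against DMSO. FB23-2 less FB23 was 0.10, with an interval of -0.27 to 0.48 on the log2 scale, and changes within these limits were not detectable at this depth. ASPSCR1, which encodes TUG, the tether that holds GLUT4 inside the cell, was 1.23 ± 0.09 lower with FB23-2 than with DMSO (edgeR adjusted p = 1.03e-09).

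The carriers on inner membranes moved apart. SLC2A6 encodes GLUT6, a lysosomal member of the family found in white blood cells and spleen, at chromosome 9, 133471095 to 133479137, minus strand. It had 24.96, 27.06 and 24.70 TPM with FB23-2, 4.19, 5.15 and 4.84 TPM with FB23 and 3.36, 3.58 and 3.74 TPM with DMSO. The groups did not overlap, and the FB23-2 libraries were several times above both others. SLC2A6 rose by 2.60 ± 0.10 with FB23-2 (edgeR adjusted p = 7.04e-14), or 6.06-fold, at the 94.7 percentile of all tested fold changes. It rose by 0.43 ± 0.11 with FB23 (edgeR adjusted p = 0.0118), or 1.35-fold. Without DMSO replicate 1 that value was 0.40 with an adjusted p of 0.0512, and over all alternatives its adjusted p ran over 0.00255 to 0.0512. FB23-2 exceeded FB23 by 2.17 ± 0.09 (edgeR adjusted p = 2.25e-13), or 4.49-fold. Of the 5 tested monocyte markers 4 were called higher and 1, ITGAM, lower with FB23-2 against DMSO. Of all tested genes 41.3% were called higher and 41.3% lower there. Among the 4, ITGAX and FCGR1A passed the filter on low counts only through the FB23-2 libraries, so their calls were not independent of that group. With FB23, where SLC2A6 was also higher, 1 of the 5 was called higher and 2 lower, where 12.3% of all genes were called higher and 11.2% lower. The lower ones were LYZ at -0.54 and ITGAM at -0.81, and the higher one, ITGAX, was not called by DESeq2 or limma. LYZ was not called without FB23 replicate 1, DMSO replicate 2 or DMSO replicate 3. Its edgeR adjusted p was then 0.0575, 0.0976 and 0.0702. The part of these markers in the SLC2A6 level was not tested. CD68, a lysosomal protein of macrophages, averaged 33.5 ± 3.64 TPM with FB23-2, 5.46 ± 0.382 TPM with FB23 and 5.06 ± 0.57 TPM with DMSO.

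SLC2A8 encodes GLUT8, which a dileucine signal holds inside the cell, at chromosome 9, 127397138 to 127408424, plus strand. It had 6.55, 7.11 and 6.34 TPM with FB23-2, 8.81, 9.31 and 10.05 TPM with FB23 and 7.42, 8.57 and 9.45 TPM with DMSO. Every FB23-2 library was below every library of the other groups, and FB23 and DMSO overlapped. SLC2A8 fell by 0.59 on the log2 scale with FB23-2 against DMSO, with an SE of 0.12 and an edgeR adjusted p of 0.00017. On the log2(TPM + 0.1) scale the same difference was -0.34 with a limma adjusted p of 0.00882. The FB23 change of 0.15, with an interval of -0.07 to 0.38, was not called (edgeR adjusted p = 0.333). FB23-2 was lower than FB23 by a log2 fold change of -0.74 ± 0.11 (edgeR adjusted p = 8.12e-06).

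**Figure D2:**
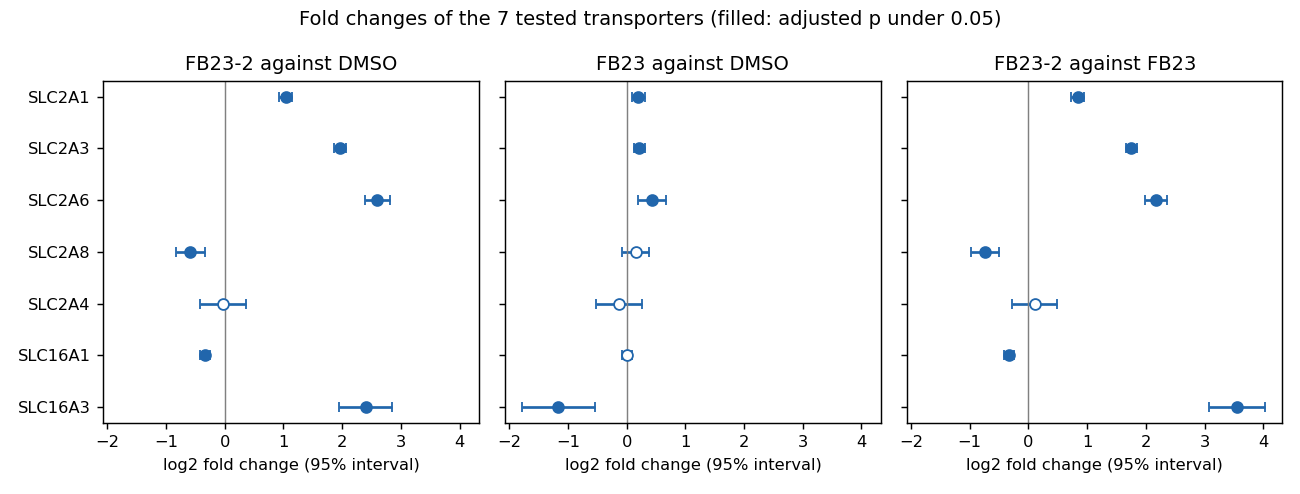
Log2 fold changes of the 7 tested transporters with 95% intervals, with both compounds set against DMSO and then against each other. Filled points are called. SLC16A3 lies at 2.40 with FB23-2 and at -1.16 with FB23, and SLC2A1, SLC2A3 and SLC2A6 lie above 0 in all panels.

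SLC16A1 encodes MCT1, a lactate carrier found in most tissues and in red cells, at chromosome 1, 112911847 to 112957013, minus strand. It had 152.20, 152.75 and 165.48 TPM with FB23-2, 176.27, 171.48 and 157.02 TPM with FB23 and 159.38, 169.19 and 169.75 TPM with DMSO. In TPM the 3 groups overlapped. In CPM, the scale of the test, which divides by the scaled library total and not by gene length, it averaged 351.9 ± 4.09 with FB23-2, 444.3 ± 15.3 with FB23 and 443.6 ± 9.41 with DMSO, and FB23-2 lay apart. SLC16A1 fell by 0.33 on the log2 CPM scale with FB23-2 against DMSO, with an SE of 0.04 and an edgeR adjusted p of 7.79e-07, or 0.793-fold. On the log2(TPM + 0.1) scale the difference was -0.08 with a limma adjusted p of 0.158. That scale moved the median gene by 0.25 upwards in the same comparison. FB23-2 against FB23 gave -0.34 ± 0.04 (edgeR adjusted p = 7.47e-07), and -0.10 on the log2(TPM + 0.1) scale with a limma adjusted p of 0.0952, where the median gene moved by 0.23. Against DMSO the fall of SLC16A1 was also called with upper-quartile factors, at -0.16, and with library totals, at -0.19, in place of TMM factors. With FB23 the log2 fold change against DMSO was 0.0014, with an interval of -0.09 to 0.09. SLC16A1-AS1, an antisense RNA that overlaps the gene, averaged 5.91 ± 0.753 TPM with FB23-2, 5.94 ± 0.711 TPM with FB23 and 7.21 ± 0.168 TPM with DMSO. It was called lower with FB23-2, by a log2 fold change of -0.54 ± 0.14 (edgeR adjusted p = 0.00179).

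SLC16A3 encodes MCT4, the carrier by which strongly glycolytic cells release lactate, at chromosome 17, 82228397 to 82261129, plus strand. It had 6.12, 5.35 and 5.70 TPM with FB23-2, 0.60, 0.47 and 0.29 TPM with FB23 and 0.84, 0.84 and 1.07 TPM with DMSO. These levels rest on 176, 113 and 97 expected counts with FB23-2, 9, 18 and 14 with FB23 and 18, 19 and 22 with DMSO. The groups did not overlap: FB23-2 was highest, DMSO lay between and FB23 was lowest. SLC16A3 rose by 2.40 ± 0.21 with FB23-2 against DMSO (edgeR adjusted p = 8.40e-09), or 5.28-fold. With FB23 it fell by 1.16 on the log2 scale, with an SE of 0.29 and an edgeR adjusted p of 0.00864, or 0.448-fold. Without FB23 replicate 3, the lowest library, that value was -0.87 with an adjusted p of 0.0553, and over all alternatives it ran over -1.29 to -0.87 with adjusted p of 0.00562 to 0.0553. FB23-2 exceeded FB23 by 3.56 ± 0.23 (edgeR adjusted p = 9.63e-11), or 11.8-fold, the largest difference among the 7 transporters in the 3 comparisons. SLC16A3 was the only one of the 7 called in opposite directions with FB23-2 and FB23 against DMSO. Related genes outside the set were also called so, among them PFKFB4, at 1.64 with FB23-2 and -0.30 with FB23, and ALAS2, at -1.04 and 0.51. The share of all tested genes called so was not counted.

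SLC16A7 encodes MCT2, a high-affinity carrier of lactate and pyruvate, at chromosome 12, 59596067 to 59789855, plus strand. It had 0.02, 0.07 and 0 TPM with FB23-2, 0, 0.03 and 0.02 TPM with FB23 and 0, 0.04 and 0.05 TPM with DMSO. Each group had 1 library at 0 counts, where a count of 0 allows up to 0.182 CPM for FB23-2, 0.246 CPM for FB23 and 0.183 CPM for DMSO. The summed expected counts were 12.7 with FB23-2, 12.1 with FB23 and 12.6 with DMSO, and no difference was detectable at this depth. EMB, which encodes embigin, the partner that takes MCT2 to the membrane, had 0 counts with FB23-2, 0 with FB23 and 1 in 1 DMSO library, where 0 counts allow up to 0.0809 to 0.246 CPM in a library.

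Within the set the order of levels changed with FB23-2. By mean TPM it ran SLC2A3, SLC2A1, SLC16A1, SLC2A6, SLC2A8, SLC16A3, SLC2A4 and SLC16A7 with FB23-2. With FB23, and likewise with DMSO, it ran SLC16A1, SLC2A1, SLC2A3, SLC2A8, SLC2A6, SLC2A4, SLC16A3 and SLC16A7. Neighbours in these orders did not overlap over the 3 libraries of any group. By mean TPM over all genes, SLC2A3 ranked 336 with FB23-2, 1857 with FB23 and 2171 with DMSO, whereas SLC16A1 ranked 734 with FB23-2, 818 with FB23 and 839 with DMSO.

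The 5 SLC2A genes summed to 571.2 ± 8.15 TPM with FB23-2, 202.8 ± 1.77 TPM with FB23 and 174.0 ± 2.00 TPM with DMSO (SD, n = 3 each). The groups lay apart, at 563.6 to 579.8 TPM with FB23-2, 201.7 to 204.8 TPM with FB23 and 172 to 176.0 TPM with DMSO. FB23-2 was 3.28 times and FB23 1.17 times the DMSO level. Each gave an exact two-sided permutation p of 0.1, the smallest that 3 against 3 libraries can give, and 0.15 after adjustment over 12 such comparisons. SLC2A3 made up 53.6 ± 1.99% of the sum with FB23-2, 38.3 ± 2.25% with FB23 and 37.9 ± 0.764% with DMSO. The ratio of SLC2A3 to SLC2A1 in TPM was 1.33 ± 0.108 with FB23-2, 0.711 ± 0.0644 with FB23 and 0.699 ± 0.0216 with DMSO. Its exact permutation p was 0.1 for FB23-2 and 0.9 for FB23 against DMSO, or 0.15 and 0.9 after adjustment. The 3 SLC16A genes summed to 162.6 ± 7.46 TPM with FB23-2, 168.7 ± 10.2 TPM with FB23 and 167.1 ± 5.93 TPM with DMSO. These sums overlapped, with an exact permutation p of 0.4 for FB23-2 and 0.8 for FB23 against DMSO, or 0.533 and 0.873 after adjustment. SLC16A1 held 96.5 ± 0.292% of that sum with FB23-2, 99.7 ± 0.0723% with FB23 and 99.4 ± 0.0778% with DMSO. All these sums are in TPM, a scale that moved the median gene by 0.25 upwards for FB23-2 against DMSO. In CPM SLC16A1 was lower with FB23-2, at 351.9 against 443.6 with DMSO, without overlap. The overlap of the SLC16A sums therefore holds for TPM only, and the SLC2A folds also depend on that scale.

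**Figure D3:**
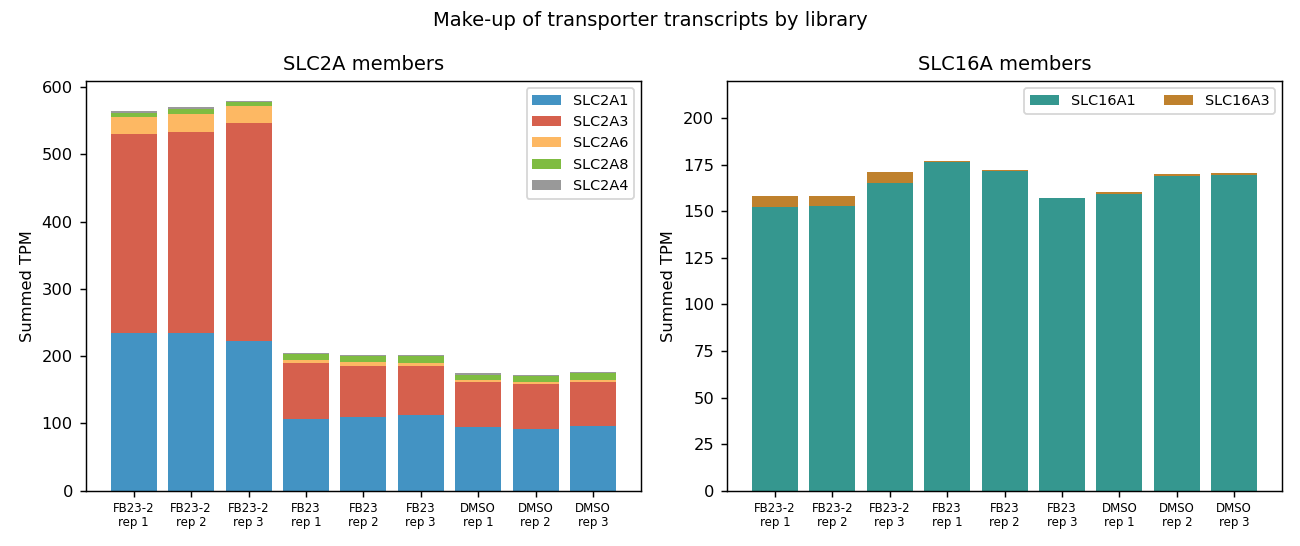
Summed TPM of the SLC2A transporters (left) and of SLC16A1 and SLC16A3 (right) in each library, stacked by gene, with FB23-2, FB23 and DMSO from left to right; SLC16A7, at 0.07 TPM or less, is not drawn. The SLC2A bars stand at 563.6 to 579.8 TPM with FB23-2 and at 172 to 176.0 TPM with DMSO, mostly SLC2A3 and SLC2A1, and the SLC16A bars overlap between groups. In CPM SLC16A1 was lower with FB23-2 and did not overlap the other groups.

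Genes with a profile over the 9 libraries most like each tested transporter were found by the root mean square difference of log2 CPM centred on each gene's mean. The profile of SLC16A1 was common, with 874 genes, 6.73% of those compared, within 0.1. Its nearest were COPB2 at 0.023 and GIGYF2 at 0.024. SLC2A1 had 167 genes within 0.1, nearest PPM1M at 0.029 and ARID3B at 0.036. SLC2A8 had 34, nearest PCK2 at 0.055 and ADGRD1 at 0.067, and SLC2A3 had 30, nearest RAPGEF2 at 0.049 and CTSB at 0.052. SLC2A6 had 3, nearest GRN at 0.080 and BACH2 at 0.089, and SLC2A4 had 1, ZNF416 at 0.099, followed by HOXC6 at 0.13. SLC16A3 had none, and its nearest were SFN at 0.26 and EBI3 at 0.28. SFN had log2 fold changes of 2.39 with FB23-2 and -0.89 with FB23 against DMSO. Both genes were chosen for likeness to the SLC16A3 profile, so a shared split follows from that choice and is no separate result. Among the transporters themselves SLC2A8 and SLC16A1 were nearest, 0.20 apart, followed by SLC2A4 and SLC16A1 at 0.27 and SLC2A3 and SLC2A6 at 0.29. The farthest pair, SLC2A8 and SLC16A3, were 1.71 apart.

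Other members of both families were mostly low. Of 9 other SLC2A genes 4 were tested, and 3 were higher and 0 lower with FB23-2 against DMSO. In that comparison 82.6% of all tested genes were called, 41.3% in each direction. Among the 3, SLC2A14 lay under the filter's cut of 0.548 CPM in every FB23 and DMSO library. It was tested only through its FB23-2 libraries, so its call was not independent of that group. SLC2A12, which encodes GLUT12, averaged 5.14 ± 0.264 TPM with FB23-2, 0.893 ± 0.0306 TPM with FB23 and 0.703 ± 0.111 TPM with DMSO, and rose by 2.62 ± 0.13 with FB23-2 (edgeR adjusted p = 1.77e-12). With FB23 0 of the 4 were called by edgeR, by DESeq2 or by limma, and 1, SLC2A12 at 0.32, had an unadjusted p under 0.05 in edgeR's test over all genes, of 0.0478. Of 11 other SLC16A genes 6 were tested, and 2 were higher and 3 lower with FB23-2 against DMSO (3 and 2 on the log2(TPM + 0.1) scale), again beside 82.6% of all genes called. SLC16A13, which encodes MCT13, averaged 20.2 ± 0.830 TPM with FB23-2, 4.33 ± 0.639 TPM with FB23 and 3.51 ± 0.656 TPM with DMSO, and rose by 2.27 ± 0.13 with FB23-2. SLC16A5 rose by 1.84 ± 0.16. SLC16A9, a carnitine carrier, averaged 0.20 ± 0.118 TPM with FB23-2, 0.65 ± 0.0656 TPM with FB23 and 1.29 ± 0.0451 TPM with DMSO, and was the 1 of the 6 called with FB23, with a log2 fold change of -0.996 ± 0.236 (edgeR adjusted p = 0.00587). SLC16A6 was lower with FB23-2 by a log2 fold change of -1.88 ± 0.26. The 6 sodium-coupled carriers of glucose and monocarboxylates did not pass the filter on low counts.

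BSG encodes basigin, the partner that MCT1 and MCT4 need to reach the membrane. It averaged 1276 ± 16.3 TPM with FB23-2, 967.2 ± 28.4 TPM with FB23 and 964.5 ± 29.7 TPM with DMSO, far above both carriers. BSG was higher with FB23-2 than with DMSO by 0.16 ± 0.05 on the log2 CPM scale (edgeR adjusted p = 0.0074), and without DMSO replicate 2 by 0.12 with an adjusted p of 0.0668. With FB23 the value was -0.01 (edgeR adjusted p = 0.889).

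Of 12 genes that make and use lactate and pyruvate 11 were tested. For FB23-2 against DMSO 6 were higher and 5 lower (6 and 3 on the log2(TPM + 0.1) scale), beside 82.6% of all tested genes called. LDHA, the subunit of lactate dehydrogenase abundant in glycolytic tissue, averaged 679.1 ± 36.9 TPM with FB23-2, 315.7 ± 9.47 TPM with FB23 and 361.7 ± 10.1 TPM with DMSO. LDHB, the subunit abundant in heart, averaged 593.8 ± 18.9 TPM with FB23-2, 1276 ± 31.8 TPM with FB23 and 1346 ± 42.5 TPM with DMSO. LDHA rose by 0.66 ± 0.04 and LDHB fell by 1.42 on the log2 scale with FB23-2 against DMSO. LDHA, like SLC16A3, was called in opposite directions by the compounds, with -0.21 ± 0.04 for FB23 against DMSO (edgeR adjusted p = 0.00161). So was PDHB in this list, at -0.30 with FB23-2 and 0.26 with FB23 against DMSO. PDK4 and PDK1, kinases that switch off pyruvate dehydrogenase, rose by 3.12 ± 0.15 and 2.11 ± 0.12 with FB23-2, and PDHA1, a subunit of that enzyme, fell by 1.68. With FB23 3 of the 11 were higher and 2 lower, beside 12.3% and 11.2% of all tested genes. LDHD, the D-lactate dehydrogenase, was highest among them at 1.73 ± 0.32 (edgeR adjusted p = 0.000896), from 0.973 ± 0.121 TPM with FB23 and 0.293 ± 0.0153 TPM with DMSO. It had 6, 7 and 6 expected counts with DMSO, under the filter's cut of 0.548 CPM in each library. LDHD was tested only through the FB23-2 and FB23 libraries, so its calls against DMSO, higher with both compounds, were not independent of those groups. The fall of PDHA1 with FB23, -0.14 with an edgeR adjusted p of 0.0346, was not called under 8 of the alternatives, among them leaving out FB23 replicate 1 or 2 or DMSO replicate 1 or 2, with adjusted p up to 0.190.

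Of 13 genes of the first steps of glycolysis 9 were tested, and 3 were higher and 4 lower with FB23-2 against DMSO (5 and 3 on the log2(TPM + 0.1) scale), beside 82.6% of all tested genes called. HK1, the hexokinase that traps glucose in the cell as its phosphate, averaged 153.8 ± 2.68 TPM with FB23-2, 271.2 ± 2.98 TPM with FB23 and 339.3 ± 9.19 TPM with DMSO. PFKFB4, an enzyme that makes the activator of phosphofructokinase, averaged 52.2 ± 2.10 TPM with FB23-2, 11.5 ± 0.396 TPM with FB23 and 14.1 ± 0.939 TPM with DMSO. HK1 fell by 1.39 and PFKFB4 rose by 1.64 ± 0.07 on the log2 scale with FB23-2. With FB23 1 was higher and 4 lower, beside 12.3% and 11.2% of all tested genes. The higher one, PFKL at 0.26 ± 0.07, was not called without DMSO replicate 1 or DMSO replicate 2, with edgeR adjusted p of 0.0533 and 0.0529. HK2 had the largest fall, -0.42 ± 0.05 (edgeR adjusted p = 1.03e-05).

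Of 17 regulators of glucose transporters, all tested, 11 were higher and 5 lower with FB23-2 against DMSO, beside 41.3% of all tested genes in each direction. With FB23 7 were higher and 3 lower, beside 12.3% and 11.2% of all tested genes. DESeq2 called 5 higher and 3 lower with FB23, and limma on log2(TPM + 0.1) called 5 and 2. TXNIP and ARRDC4, arrestin-domain proteins that draw GLUT1 away from the cell surface, rose with both compounds. TXNIP had 217.68, 203.93 and 234.77 TPM with FB23-2, 101.55, 100.44 and 95.62 TPM with FB23 and 63.10, 69.07 and 68.22 TPM with DMSO. The groups did not overlap. TXNIP rose by 1.46 ± 0.05 with FB23-2 (edgeR adjusted p = 6.15e-15) and by 0.55 ± 0.05 with FB23 (edgeR adjusted p = 6.11e-07). ARRDC4 rose by 2.09 ± 0.08 and 0.60 ± 0.08 in the same comparisons. MLXIPL, which encodes the glucose-sensing factor ChREBP, had the largest rise in the list, by 3.27 ± 0.13 with FB23-2 and 0.68 ± 0.15 with FB23. MLX, also in the list, was lower with both, by log2 fold changes of -1.15 ± 0.05 and -0.27 ± 0.05 (edgeR adjusted p = 5.88e-13 and 0.000722). EPAS1, a hypoxia-inducible factor, rose by 2.34 ± 0.06 with FB23-2, and its FB23 value was 0.07 (edgeR adjusted p = 0.499). MYC, a transcription factor that activates glycolytic genes, averaged 227.8 ± 8.54 TPM with FB23-2, 559.7 ± 5.83 TPM with FB23 and 682.5 ± 4.23 TPM with DMSO, and was lower in both comparisons, by log2 fold changes of -1.83 ± 0.05 and -0.30 ± 0.05.

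**Figure D4:**
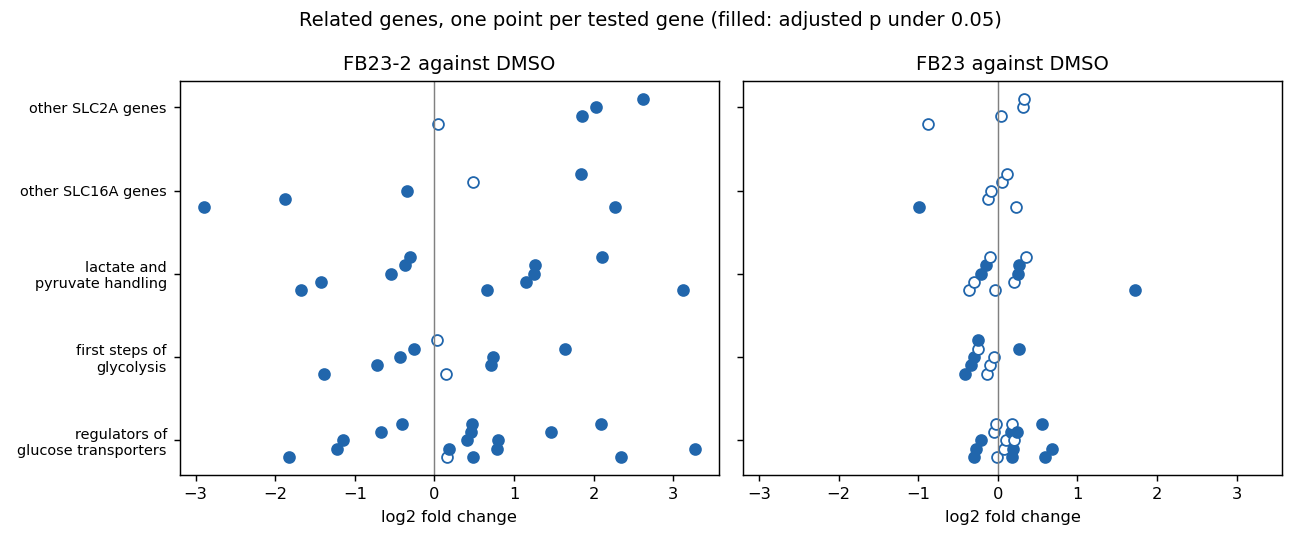
Log2 fold changes of every tested gene in 5 lists of related genes, for FB23-2 against DMSO (left) and FB23 against DMSO (right), with 1 point per gene and filled points for called genes. With FB23-2 the lists spread to both sides of 0, from SLC16A9 at -2.90 to MLXIPL at 3.27, and with FB23 most points lie near 0.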

How the data were processed

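Poly(A) RNA from cells labelled NB4 was made into directional NEBNext Ultra libraries per the labels' protocols, and read on an Illumina HiSeq. The deposited files give 1 row for each of 26830 genes. The expected count column is the reads per gene estimated by RSEM, per the file headers. The TPM column, also per the file headers, is scaled to gene length and library total, and the deposited FPKM column was not used here. RSEM 1.2.31 and GRCh38 are named in the submitters' processing notes. Not given in the sources used here are the aligner, annotation release and strand setting. The length and effective length columns are deposited in bases.

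Rounded expected counts went into edgeR 4.0.16 (R 4.3.3). The filter filterByExpr (minimum count 10, minimum total 15) left 13365 genes, TMM factors scaled the libraries, and 1 quasi-likelihood fit with a mean for each group took in all 9, two-sided, with Benjamini-Hochberg adjustment over the tested genes. CPM uses the TMM scaling. Sums and ratios of TPM were compared by exact permutation. Genes at 0 counts are given a limit of 3 counts, and limits cover counting error only, because reads that carry no molecular identifiers may be copies. The 8 transporters and the related lists were chosen with earlier results of these data known. From each list the text names at most the 2 highest and 2 lowest called genes of a comparison, always BSG, EMB, TXNIP and SLC2A14, and for each tested transporter the 2 genes nearest in profile. The markers CD14, CSF1R, MPO and CTSG, and the genes PDHB and HIF1A, were named after their values were seen. Positions are from GENCODE 29 and promoters from RefSeq GRCh38.p14. Alternatives used DESeq2 1.42.0, limma 3.58.1 (voom, and log2(TPM + 0.1)), other scalings and filters, the 6 libraries compared alone, the replicate number as a block, transcript length offsets and leaving out each library. The fit was tested on simulated data in which few genes changed, unlike here, so that test cannot check the scaling. In it 6.25% of calls for FB23-2 against DMSO were false. For FB23 against DMSO 42.2% of log2 changes of 0.25 and 87.9% of those of 0.5 were recovered. No replicates were identical. The common biological coefficient of variation was 5.12%.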

Additional observations from a re-analysis of the deposited data

Results flagged for a closer look

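SLC16A3 moved in opposite directions with the compounds: it was higher with FB23-2 than with DMSO, by 2.40 ± 0.21 on the log2 scale, and lower with FB23 than with DMSO, by a log2 fold change of -1.16 ± 0.29. The difference between the compounds themselves was 3.56 ± 0.23 with an edgeR adjusted p of 9.63e-11 (n = 3 each), and every FB23-2 library was above every FB23 library. The FB23 libraries held 9, 18 and 14 expected counts of the gene, so the FB23 value rests on few reads. In the comparison with DMSO it had an adjusted p of 0.0553 without FB23 replicate 3. Such a split was not particular to SLC16A3. Among related genes LDHA, PFKFB4, PDHB, LYZ, ALAS2 and HBA2 were also called in opposite directions by the compounds against DMSO. The share of all tested genes called so was not counted.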

How the results depend on the processing

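Of 423 values for the 7 tested transporters under alternatives, 418 kept the direction and the side of the threshold (uncalled values near 0 could change sign), 5 lost the call and 0 reversed a call. On the log2(TPM + 0.1) scale 1 transporter, SLC2A8, was called lower with FB23-2, against DMSO and against FB23 alike, where the count test called 2; SLC16A1 lost its call. Leaving out each library in turn gave 0 to 1 transporters called lower for FB23 against DMSO, with 0 when FB23 replicate 3 was left out. The alternatives shifted the median fold change with FB23-2: relative to TMM it moved by 0.17 with upper-quartile factors, 0.15 with library totals and 0.25 with TPM against DMSO. Over all genes, 5523 were called higher and 5518 lower for FB23-2 against DMSO, and 6732 and 4256 on the TPM scale; for FB23-2 against FB23 5395 and 5495 were, and 6595 and 4130 on the TPM scale; for FB23 against DMSO 1647 and 1497 were, and 2120 and 1088 without a filter on low counts. HK2, not called for FB23-2 against FB23 at -0.02, was called higher there by 0.15 with upper-quartile factors, 0.11 with library totals and 0.22 on the TPM scale; the cause was not tested. The replicate block left the counts of called transporters at 4 and 2 for FB23-2 against DMSO, 3 and 1 for FB23 against DMSO, and 4 and 2 for FB23-2 against FB23, higher and lower, and gave 10883, 2504 and 10705 calls over all genes. Libraries with the same number correlated at -0.18 to 0.0856 in their deviations from group means over 9 pairs, and those with different numbers at -0.13 to 0.166. The best partner in another group had the same number in 10 of 18 cases. These values do not settle whether the numbers pair the libraries. The main fit had no replicate block because the labels do not say that the numbers mark a shared culture or day. Depth limits the values of SLC16A7, of SLC16A3 with FB23 and of SLC2A14, which rest on few counts.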

Other observations

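SLC5A10, a sodium-coupled sugar carrier singled out after its values were seen, had 11, 5 and 2 expected counts with FB23-2, 0, 0 and 0 with FB23 and 0, 0 and 0 with DMSO, where 0 counts allow up to 0.0809 to 0.246 CPM in a library. It did not pass the filter on low counts and was not tested.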
